A study of Mus musculus with 9 samples.

Results

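The circadian clock genes Arntl, Clock, Npas2, Per1, Per2, Per3, Cry1, Cry2, Nr1d1 and Dbp were examined in macrophages from the inflamed colon of mice with and without myeloid Arnt. They were chosen as the core genes of the clock loop, among which Arntl, also called Bmal1, is a paralog of Arnt. Each gene was represented by the brightest probe set that carried its symbol alone. Of the 10 genes, 9 had such a probe set, out of 22180 genes with a probe set of their own. Per2 shared its only probe set with 9830107B12Rik, and that probe set is described under both names.

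Each of 9 female C57BL/6 mice gave its own array, 5 of genotype LysMCre and 4 of genotype LysMCre;Arntfl/fl. LysMCre mice have intact Arnt alleles, and both genotypes carry the LysM-Cre allele. In LysMCre;Arntfl/fl mice, deletion is directed to the myeloid lineage, neutrophils as well as macrophages. It need not be complete in young monocytes, and the study found it less efficient in neutrophils from bone marrow than in bone marrow-derived macrophages. All mice had shared cages and had drunk 3% dextran sodium sulfate (DSS) for 5 days and regular water for 3 days. On Day 8, CD45+, CD11b+, F4/80+ cells were sorted from the colonic lamina propria. The sources used here give neither the age of the mice nor the hour at which the colons were collected, and the Arntfl/fl line had been backcrossed to C57BL/6 from a mixed background.

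The circadian clock is a feedback loop of transcription that runs in most cells, macrophages included. ARNTL pairs with CLOCK or NPAS2 and activates genes that hold an E-box, among them the Per and Cry genes, whose proteins return to the nucleus and repress the activators. NR1D1, also called REV-ERB alpha, represses Arntl in a second loop, and DBP is a rhythmic activator of output genes. ARNTL, CLOCK and NPAS2 belong to the bHLH-PAS family, as do ARNT, the HIF alpha subunits and the aryl hydrocarbon receptor (AhR), and ARNT is the partner of the latter proteins.

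Values are on the log2 scale of the deposited normalized arrays, so that a difference of 1 is a doubling, and differences are LysMCre;Arntfl/fl minus LysMCre. The genotypes were compared for each probe set with limma, and p-values were adjusted by the Benjamini-Hochberg method over the full set of 34365 probe sets. "Called" below means an adjusted p under 0.05 together with a change of over 1.5-fold. Array medians were 5.98 to 6.04, and the correlation of any pair of arrays was 0.976 to 0.990. The 10 macrophage markers had list means of 10.71 to 11.12 in LysMCre and 10.71 to 10.93 in LysMCre;Arntfl/fl arrays. Of these markers, 0 were called, against 0.294% of all probe sets. An unadjusted p below 0.05 was found for 4, 2 in each direction (11.5% of all probe sets), and 2 did not overlap between the genotypes (4.73% of all probe sets). The largest differences were those of Cx3cr1 (-0.83, adjusted p = 0.103 from limma) and Itgam, the CD11b gene (0.44, adjusted p = 0.160), both without overlap, and of C1qa (-0.56, adjusted p = 0.206) and Lyz2 (0.26, adjusted p = 0.363), both with overlap. Their part in the values of the clock genes was not tested. The list mean of 14 neutrophil markers lay between 7.75 and 8.96 in LysMCre and between 9.30 and 9.93 in LysMCre;Arntfl/fl arrays, with no overlap. All 14 had a positive difference (median 1.40), 11 had an unadjusted p below 0.05, and 6 did not overlap between the genotypes. Of the 14, 1 was called, the granule gene Ngp (difference 3.45, adjusted p = 0.0330 from limma). Some of these neutrophil genes are named in the study from the same arrays. For 10 epithelial markers the ranges were 7.41 to 10.20 and 8.46 to 9.42, and for 8 lymphocyte markers 8.28 to 9.15 and 8.10 to 8.73. On bulk samples of this kind, fewer cells of a type and less RNA per cell cannot be told apart.

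Arnt itself, the deleted gene, fell. Its values were 9.54, 9.44, 9.36, 9.31 and 9.31 in LysMCre replicates 1 to 5, and 8.77, 8.60, 8.84 and 8.70 in LysMCre;Arntfl/fl replicates 1 to 4. The highest LysMCre;Arntfl/fl array was below the lowest LysMCre array (difference -0.66, fold 0.631, adjusted p = 0.0214 from limma). Which exons the probes cover, and so whether they lie in the deleted part, is unknown here.

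None of the 9 clock genes was called, while limma called 0.294% of all probe sets. Cry1 was higher and Per1 lower in LysMCre;Arntfl/fl arrays with no overlap between the genotypes, and the other 7 genes overlapped. Without adjustment, 2 of the 9 genes had a limma p below 0.05, 1 higher and 1 lower, against 11.5% of all probe sets (5.72% higher and 5.79% lower). The genotypes did not overlap in the same 2 of the 9, against 4.73% of all probe sets (2.52% higher and 2.22% lower). The other 7 genes differed by less than 0.25 on the log2 scale, as did 83.9% of all probe sets. Of the 9 genes, 7 had a positive and 2 a negative difference, with a median of 0.15, and the median over all genes with a probe set of their own was 0.01. The genes fell into a bright and a dim set. The mean of Arntl, Clock, Per1 and Cry1 exceeded that of at least 86.9% of probe sets, and the mean of Npas2, Per3, Cry2, Nr1d1 and Dbp that of 52.6% to 66.2%. Probe sets differ in how brightly they report a transcript, so these positions do not order the amounts of RNA, and without detection calls it is not known which of the dim genes lay above background.

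**Figure D1:**
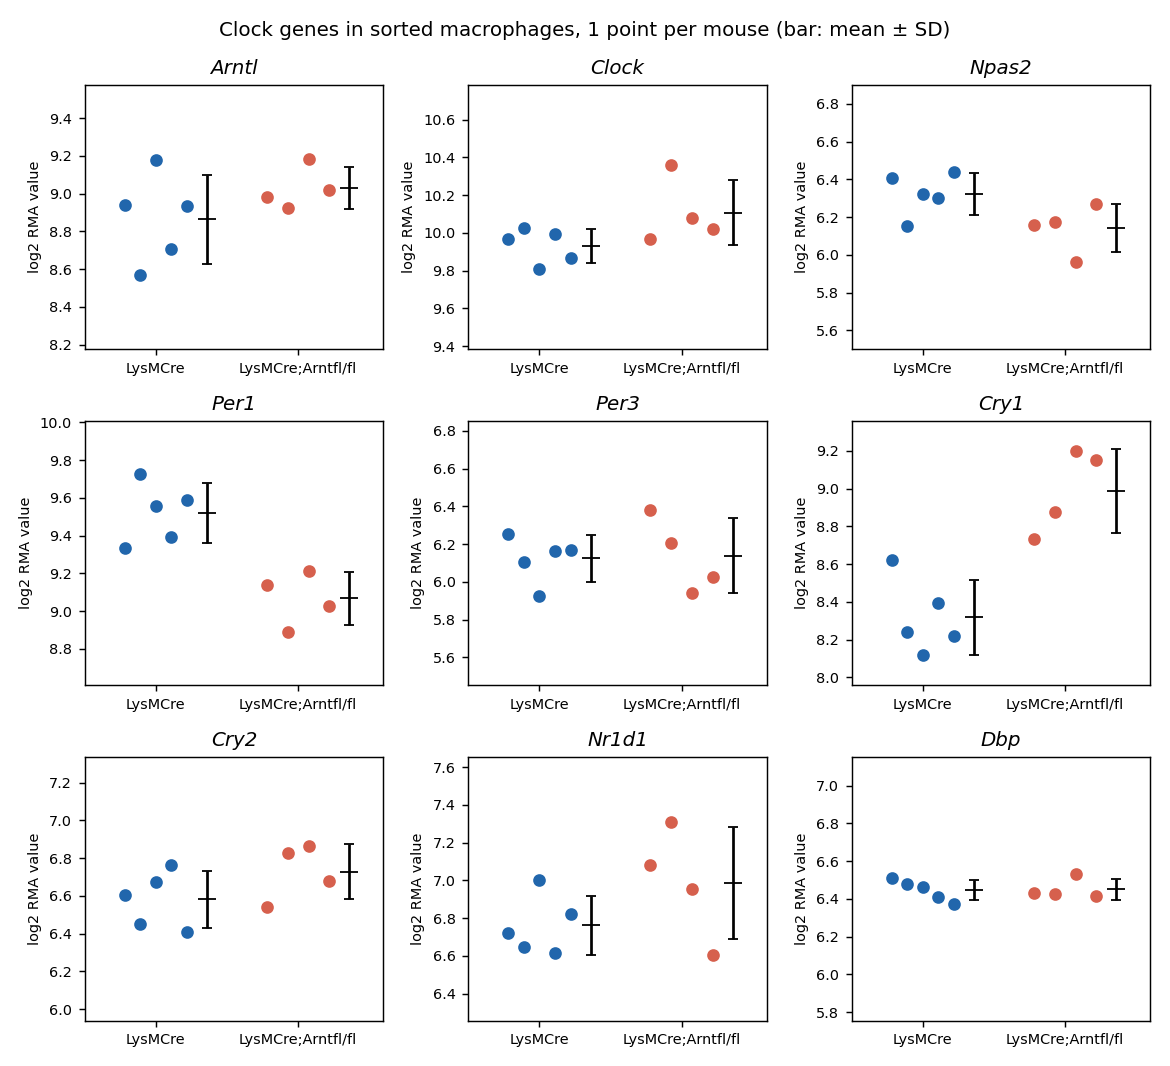
Log2 value of each clock gene with a probe set of its own (vertical axis, 1.4 log2 units in every panel) in 5 LysMCre (blue) and 4 LysMCre;Arntfl/fl mice (red), 1 point per mouse in order of replicate, with the mean and SD of the group in black. The genotypes separate in the Cry1 and Per1 panels and overlap in the other 7.

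Cry1, which encodes a strong repressor of the ARNTL and CLOCK pair, had the largest difference of the 9 genes. Its values were 8.62, 8.24, 8.12, 8.39 and 8.22 in LysMCre replicates 1 to 5. They were 8.73, 8.87, 9.20 and 9.15 in LysMCre;Arntfl/fl replicates 1 to 4. All LysMCre;Arntfl/fl arrays thus lay above all LysMCre arrays, with the narrowest gap between LysMCre replicate 1 and LysMCre;Arntfl/fl replicate 1. The means were 8.32 ± 0.20 (SD, n = 5) and 8.99 ± 0.22 (SD, n = 4), a 1.59-fold difference (log2 difference 0.67, standard error 0.13, adjusted p = 0.0601 from limma, 95% interval of the fold 1.30 to 1.94). It was therefore past the fold threshold, as 2.62% of all probe sets were, but not past the adjusted p. Cry1 ranked 198 of 34365 probe sets by p. It was called when only brighter probe sets (adjusted p = 0.0369) or only those with 1 symbol (0.0438) were tested, and with array weights (0.0398), and in the fits without 1 array its adjusted p ran from 0.0530 to 0.172. The list mean of the neutrophil markers also did not overlap between the genotypes, so a fit with it as a covariate cannot tell its part from that of genotype. In that fit the difference of Cry1 was 0.48 (standard error 0.26, unadjusted p = 0.0963 and adjusted p = 0.706 from limma).

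Cry2, the paralog of Cry1, did not separate the genotypes. Its values were 6.61, 6.45, 6.67, 6.76 and 6.41 in LysMCre, and 6.54, 6.82, 6.86 and 6.68 in LysMCre;Arntfl/fl arrays, in order of replicate. The lowest LysMCre;Arntfl/fl array lay among the LysMCre arrays, and the highest were above all of them. The difference was 0.15 (adjusted p = 0.665 from limma, standard error 0.10), with a 95% interval of the fold from 0.944 to 1.30. A further probe set, annotated to both Cry2 and D930015M05Rik, had a difference of 0.08 (standard error 0.10) and was not called.

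Per1, a repressor of the loop that is also induced quickly by glucocorticoids and other stimuli, had the most negative difference of the 9 genes. The LysMCre values were 9.33, 9.73, 9.55, 9.39 and 9.59, and the LysMCre;Arntfl/fl values were 9.14, 8.89, 9.21 and 9.03, in order of replicate. No LysMCre;Arntfl/fl array reached the LysMCre range, and the nearest were LysMCre replicate 1 and LysMCre;Arntfl/fl replicate 3. The means were 9.52 ± 0.16 (SD, n = 5) and 9.07 ± 0.14 (SD, n = 4), a fold of 0.732 (log2 difference -0.45, standard error 0.11, adjusted p = 0.0978 from limma, 95% interval of the fold 0.623 to 0.860). Per1 passed neither the fold nor the adjusted p threshold and was called under none of the settings tried. Without 1 array its adjusted p ran from 0.102 to 0.246. With the neutrophil mean as a covariate its difference was -0.42 (standard error 0.22, unadjusted p = 0.0813 and adjusted p = 0.684 from limma). As for Cry1, that fit cannot tell the part of the neutrophil mean from that of genotype.

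The probe set of Per2 and 9830107B12Rik had a difference of the opposite sign to Per1. It read 6.90, 7.02, 6.84, 7.24 and 7.25 in LysMCre replicates 1 to 5, and 7.16, 7.51, 7.55 and 7.33 in LysMCre;Arntfl/fl replicates 1 to 4. Of the LysMCre;Arntfl/fl arrays, replicate 1 was below the highest LysMCre arrays and the others were above all of them. The difference was 0.34 (standard error 0.12, unadjusted p = 0.0176 and adjusted p = 0.292 from limma), a fold of 1.26 with a 95% interval of 1.05 to 1.52. It cannot be assigned to Per2 alone. Per3, the third Period gene, had values of 6.25, 6.11, 5.92, 6.16 and 6.17 in LysMCre and of 6.38, 6.21, 5.94 and 6.02 in LysMCre;Arntfl/fl arrays. The arrays were fully mixed, with a difference of 0.015 (standard error 0.11, adjusted p = 0.980 from limma) and a 95% interval of the fold from 0.856 to 1.19. Among 3 probe sets of Period genes there was thus 1 lower, 1 higher and 1 near 0, and none was called.

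Cry1 and Per1 are shown with the sequence around their start sites because they were the genes whose arrays did not overlap. The windows run from 250 bases before to 50 bases after a RefSeq start in GRCm38.p6, on the strand of the gene and written 5′ to 3′. Capitals mark the canonical E-box CACGTG, which reads the same on both strands. The first of the 2 Per1 windows is printed.
Cry1, chr10:85185005-85185304, minus strand: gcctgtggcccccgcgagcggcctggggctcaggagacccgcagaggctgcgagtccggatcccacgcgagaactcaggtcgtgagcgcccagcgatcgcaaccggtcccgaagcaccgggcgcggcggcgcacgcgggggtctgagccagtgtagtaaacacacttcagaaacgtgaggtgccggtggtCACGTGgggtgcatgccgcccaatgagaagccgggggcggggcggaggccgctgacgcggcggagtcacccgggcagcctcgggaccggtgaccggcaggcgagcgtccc
Per1, chr11:69098699-69098998, plus strand: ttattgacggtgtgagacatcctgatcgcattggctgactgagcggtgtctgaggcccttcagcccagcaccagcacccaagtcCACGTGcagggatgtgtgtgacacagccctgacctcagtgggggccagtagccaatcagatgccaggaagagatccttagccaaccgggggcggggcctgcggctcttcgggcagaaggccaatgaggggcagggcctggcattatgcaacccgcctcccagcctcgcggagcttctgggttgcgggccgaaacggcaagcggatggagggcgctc
The E-box begins at position -60 relative to the start in Cry1 and at -166 in Per1. Of the 13 windows of the 9 genes, these 2 held a CACGTG, against 7.15% of 32851 windows of all genes, and the windows of Arntl, Clock, Npas2, Per3, Cry2, Nr1d1 and Dbp held none. The letters ACGTG or GCGTG, the core that HIF and ARNT pairs bind, were searched on both strands. They overlap with CACGTG. At least 1 such core, inside an E-box or not, was in 10 of the 13 windows and in 43.77% of all windows, and neither window of Arntl held one. A match of letters is a description and not a site, and sequence outside these windows was not searched. Cry1 and Per1 differed in opposite directions, and any part of the E-box in their values was not tested.

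Among the activators of the loop, Arntl overlapped between the genotypes. Its values were 8.94, 8.57, 9.18, 8.70 and 8.93 in LysMCre, and 8.98, 8.92, 9.18 and 9.02 in LysMCre;Arntfl/fl arrays. The lowest 2 arrays were LysMCre replicates 2 and 4, and the highest array of each genotype read the same to 2 decimals. The difference was 0.16 (standard error 0.12, adjusted p = 0.691 from limma), with a 95% interval of the fold from 0.928 to 1.35. Clock, the usual partner of ARNTL and the brightest of the 9, had values of 9.97, 10.03, 9.81, 9.99 and 9.87 in LysMCre and of 9.97, 10.36, 10.08 and 10.02 in LysMCre;Arntfl/fl arrays. Replicate 2 of LysMCre;Arntfl/fl stood highest, and the others lay within or near the LysMCre range. The difference was 0.17 (standard error 0.10, adjusted p = 0.554 from limma), with a 95% interval of the fold from 0.972 to 1.31.

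Npas2, which can take the place of CLOCK, read 6.41, 6.15, 6.32, 6.30 and 6.44 in LysMCre and 6.16, 6.18, 5.96 and 6.27 in LysMCre;Arntfl/fl arrays. The genotypes overlapped (difference -0.18, standard error 0.09, adjusted p = 0.497 from limma, 95% interval of the fold 0.765 to 1.01). The intervals of Arntl, Clock and Npas2 all included a fold of 1, and none reached 1.5 in either direction.

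Arnt has 3 paralogs of its own branch, of which Arntl is described above. Arnt2, known mainly from neurons, read 6.03, 5.95, 6.30, 6.57 and 6.43 in LysMCre and 5.99, 5.68, 6.16 and 6.18 in LysMCre;Arntfl/fl arrays. The genotypes overlapped (difference -0.26, standard error 0.15, adjusted p = 0.579 from limma). Arntl2, a second partner of CLOCK, read 5.62, 5.87, 5.98, 5.99 and 6.01 in LysMCre and 6.13, 5.83, 5.96 and 6.04 in LysMCre;Arntfl/fl arrays, also with overlap (difference 0.10, standard error 0.10, adjusted p = 0.801 from limma). Arnt was thus the 1 gene of the 4 that limma called.

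**Figure D2:**
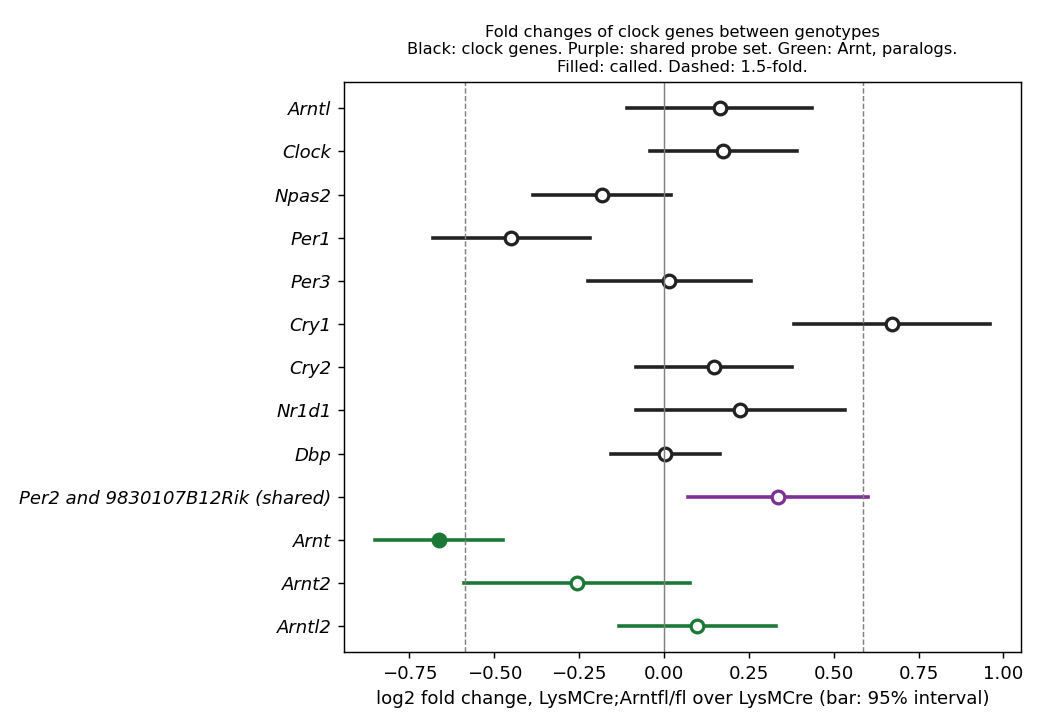
Log2 fold change of LysMCre;Arntfl/fl over LysMCre (horizontal axis) for the 9 clock genes (black), the probe set shared by Per2 and 9830107B12Rik (purple), and Arnt, Arnt2 and Arntl2 (green), with 95% intervals from limma that are not adjusted for multiple tests. Arnt alone is filled, as called, and the intervals of Arnt, Cry1, Per1 and the shared probe set lie to 1 side of 0.

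The outputs Nr1d1 and Dbp, both activated by the ARNTL and CLOCK pair, did not separate the genotypes. Nr1d1 read 6.720, 6.648, 7.002, 6.615 and 6.822 in LysMCre and 7.083, 7.308, 6.953 and 6.603 in LysMCre;Arntfl/fl arrays. The LysMCre;Arntfl/fl arrays held both the lowest and the highest value, which made it the most variable of the 9 genes within genotypes. The difference was 0.23 (standard error 0.14, adjusted p = 0.601 from limma), with a 95% interval of the fold from 0.945 to 1.45. With the neutrophil mean as a covariate the difference was 0.52 (standard error 0.27, adjusted p = 0.677 from limma), also not called.

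Dbp, whose transcript swings widely over the day in many tissues, varied little between mice. All mice were collected on Day 8, at an hour the sources do not give, so these values do not measure a daily swing. Dbp was also among the dim genes, and whether it lay above background is not known. It read 6.51, 6.48, 6.47, 6.41 and 6.37 in LysMCre and 6.43, 6.42, 6.53 and 6.41 in LysMCre;Arntfl/fl arrays. The whole range over 9 mice was 0.16, against 1.08 for Cry1 and 0.83 for Per1. Its SD within genotypes was 0.055, smaller than that of all but 0.547% of probe sets, and the median probe set had an SD of 0.173. The difference between genotypes was 0.0041 (standard error 0.07, adjusted p = 0.992 from limma), with a 95% interval of the fold from 0.897 to 1.12. Within genotypes, the SD of the 9 genes ran from that of Dbp to 0.226 for Nr1d1, and was 0.208 for Cry1, 0.192 for Arntl and 0.151 for Per1.

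**Figure D3:**
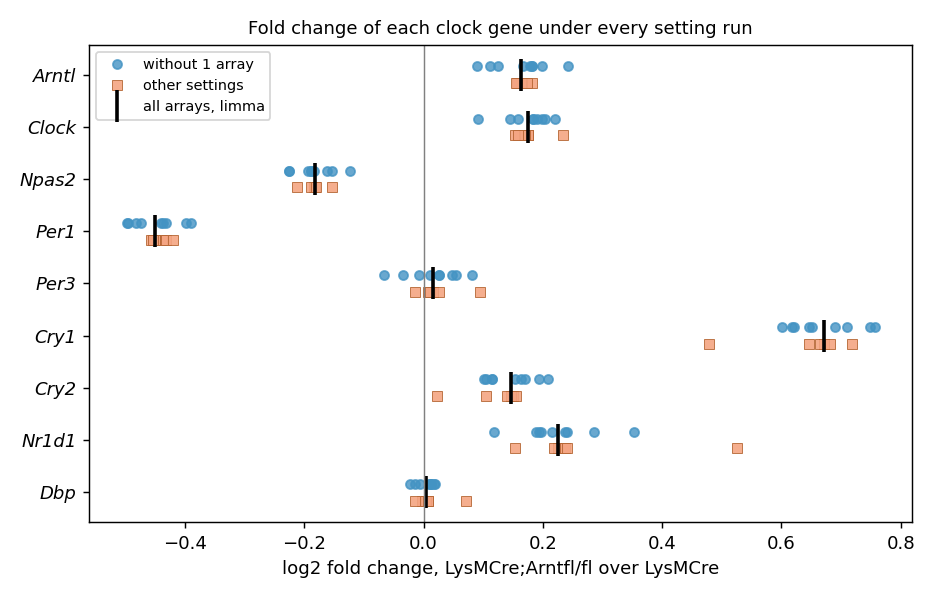
Log2 fold change of LysMCre;Arntfl/fl over LysMCre (horizontal axis) of each clock gene with all arrays (black bar), in the 9 fits without 1 array (blue circles) and under the other settings (orange squares). Cry1 ran from 0.48 to 0.76 and Per1 from -0.50 to -0.39, while Per3 and Dbp lay on both sides of 0.

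In a running clock the activators and their repressors peak at different times, so it was asked whether the 9 genes varied together between mice of the same genotype. The genotype means were subtracted and all 36 pairs were correlated over the 9 arrays, with exact two-sided permutation tests over the 2880 orders of arrays within genotypes and Benjamini-Hochberg adjustment over the pairs. No pair passed the adjusted threshold, and 0 had an unadjusted exact p below 0.05. The correlations were positive in 19 pairs and negative in 17, with a median r of 0.01.

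The strongest negative relations were those of Npas2 with Dbp, of Npas2 with Per1 and of Cry1 with Nr1d1. For Npas2 and Dbp, r was -0.62 (exact permutation p = 0.112, adjusted p = 0.937) and Spearman's rho -0.53 (p = 0.163, adjusted p = 0.981), and without the 2 arrays farthest from the median of Npas2 r was -0.18. For Npas2 and Per1, r was -0.61 (exact permutation p = 0.114, adjusted p = 0.937) and rho -0.53 (p = 0.176, adjusted p = 0.981), and r was 0.08 without the 2 farthest arrays. Leaving out those arrays narrows the range of Npas2, which can by itself weaken r. For Cry1 and Nr1d1, whose protein can repress Cry1, r was -0.60 (exact permutation p = 0.130, adjusted p = 0.937), rho was -0.68 (p = 0.0733, adjusted p = 0.981), and r was -0.81 without the 2 farthest arrays.

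The strongest positive relations were those of Cry1 with Dbp, Cry1 with Cry2 and Clock with Cry2. For Cry1 and Dbp, r was 0.45 (exact permutation p = 0.282, adjusted p = 0.937) and rho 0.33 (p = 0.407, adjusted p = 0.981), but r was -0.34 without the 2 farthest arrays. For Cry1 and Cry2, r was 0.40 (exact permutation p = 0.307, adjusted p = 0.937), rho 0.38 (p = 0.344, adjusted p = 0.981) and r 0.30 without the 2 farthest arrays. For Clock and Cry2, r was 0.36 (exact permutation p = 0.396, adjusted p = 0.937), rho 0.47 (p = 0.260, adjusted p = 0.981) and r 0.60 without the 2 farthest arrays. The smallest exact p of the 36 pairs belonged to the partners Arntl and Clock, a pair singled out after its values were seen. Their r was -0.57 (exact permutation p = 0.0542, adjusted p = 0.937), rho was -0.55 (p = 0.120, adjusted p = 0.981), and r was -0.41 without the 2 farthest arrays.

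The other regulators of the loop were not called either. Of 10 listed genes, 9 had a probe set of their own, of which 3 had a positive and 6 a negative difference (median -0.08). An unadjusted limma p below 0.05 was found for 11.5% of all probe sets and, a like share, for 1 of the 9 genes. This was Bhlhe40, also called Dec1, an E-box repressor that hypoxia induces through HIF, with a difference of -0.31 (standard error 0.11, adjusted p = 0.296 from limma) and no overlap between the genotypes. Nfil3, a repressor that opposes DBP at the D-box, had a difference of -0.23, Tef, a relative of DBP, 0.18, and Ciart, a repressor of the ARNTL and CLOCK pair, -0.14, and in these the genotypes overlapped.

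Of 15 genes listed as kinases, ligases and partners of clock proteins, 13 had a probe set of their own and 0 were called. Their differences ran from -0.31 to 0.16 with a median of -0.04. Btrc, a ubiquitin ligase subunit that targets PER proteins, had the lowest (-0.31, unadjusted p = 0.0384 and adjusted p = 0.397 from limma). It was followed by the deubiquitinase gene Usp2 with -0.28, Tipin with -0.17 and Wdr5 with 0.16. Of 9 measured rhythmic output genes, 0 were called, against 0.294% of all probe sets. An unadjusted limma p below 0.05 was found for 4, 2 higher and 2 lower, against 11.5% of all probe sets. The lipase gene Pnpla2 had the highest difference (0.47, standard error 0.09, adjusted p = 0.0646 from limma). It was the 1 gene of the list with no overlap, against 4.73% of all probe sets. The mitotic kinase gene Wee1 had a difference of -0.38 (adjusted p = 0.216 from limma), Tspan4 of 0.32 and the cell cycle inhibitor gene Cdkn1a of -0.29. Not all genes of this list are known to be rhythmic in macrophages.

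Among 13 other bHLH-PAS genes, 0 were called, against 0.294% of all probe sets. An unadjusted limma p below 0.05 was found for 2, both lower, against 11.5% of all probe sets. The genotypes did not overlap in 2, against 4.73% of all probe sets. The AhR branch had the most negative values. Ahr, the receptor gene, had a difference of -0.53 (standard error 0.11, adjusted p = 0.0652 from limma) and Ahrr, its repressor, one of -0.50 (standard error 0.12, adjusted p = 0.115 from limma), both with no overlap between the genotypes. Hif1a had a difference of 0.24 and Epas1, which encodes HIF-2 alpha, of 0.17, with overlap. The remaining genes of the list lay between -0.06 and 0.11.

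Since Per1 also answers to glucocorticoids and to immediate early signals, both groups were set beside it. Of 8 glucocorticoid-induced genes, Per1 included, 4 had a positive and 4 a negative difference (median 0.03), and 0 were called. An unadjusted limma p below 0.05 was found for 2, 1 higher and 1 lower, against 11.5% of all probe sets. The genotypes did not overlap in 2, against 4.73% of all probe sets. The chaperone gene Fkbp5 had a difference of 0.49 (standard error 0.11, adjusted p = 0.0937 from limma) with no overlap, in the direction opposite to Per1, Zbtb16 had 0.29 and Sgk1 -0.24. All 8 immediate early genes had a negative difference (median -0.35, against 0.01 over all genes). Of them, 4 had an unadjusted p below 0.05, against 11.5% of all probe sets, and 0 were called. The genotypes did not overlap in Fosb and Egr1, 2 of the 8, against 4.73% of all probe sets. The lowest differences were those of Fosb (-0.60, adjusted p = 0.0652 from limma), Egr2 (-0.58, adjusted p = 0.137), Egr1 (-0.42, adjusted p = 0.140) and Fos (-0.35, adjusted p = 0.464). Their list mean lay between 10.60 and 10.75 in LysMCre and between 10.07 and 10.47 in LysMCre;Arntfl/fl arrays, with no overlap, as in Per1. Their part in the value of Per1 was not tested.

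**Figure D4:**
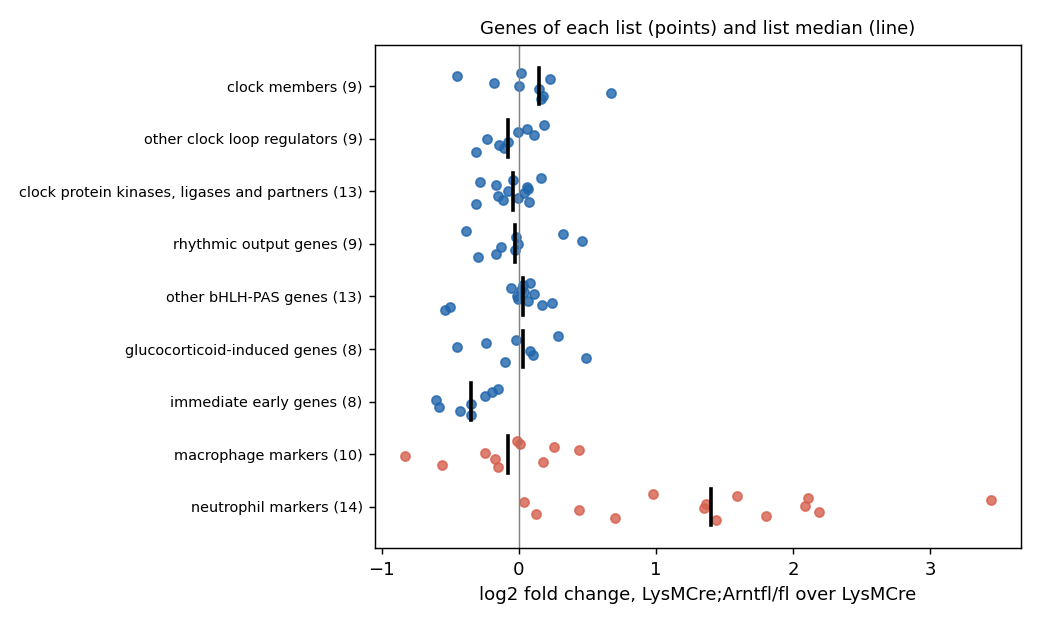
Log2 fold change of LysMCre;Arntfl/fl over LysMCre (horizontal axis) for every measured gene of 9 lists (points, number of genes in parentheses) with the list median (black line), marker lists in red. The medians of the clock and bHLH-PAS lists lie between -0.08 and 0.15, that of the immediate early genes at -0.35 and that of the neutrophil markers at 1.40.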

How the data were processed

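Sorted lamina propria macrophages of 9 mice were measured on Affymetrix Mouse Gene arrays. According to the methods and the submitters' processing notes, the authors used Expression Console with default parameters, RMA and Partek (version 6.6 in the notes), and they deposited log2 values that were background-corrected, quantile-normalized and summarized per probe set. The sources used here state neither the annotation release nor any filter. Of 34365 probe sets, 23521 carried 1 gene symbol, 1820 several and 9024 none, and a probe set with several was assigned to no gene. The platform annotation and RefSeq promoters (GRCm38.p6) gave names and sequences, and all 9 clock genes with a probe set of their own matched a promoter.

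The genotypes were compared by lmFit and eBayes (limma 3.58.1, R 4.3.3) on all probe sets without a filter, and the test was checked on simulated data. The number of arrays limits the precision. Results were recomputed with array weights, with robust variances, with a trend in the variance, with a d score of the SAM type (100 permutations, SAM being the test the methods name), with the methods' t-test, and with other sets of probe sets, other normalizations, a threshold without fold, the replicate number as a block, the neutrophil mean as a covariate, and leaving out each array. The mean over the probe sets of a gene gave no alternative value, since each of the 9 genes has 1. Named beside the clock genes were Arnt, Arnt2, Arntl2, and up to 4 genes of each other list with the largest absolute difference (of neutrophil, epithelial and lymphocyte markers, called genes only). The clock genes and the lists were chosen with earlier results of these data known.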

Additional observations from a re-analysis of the deposited data

Results flagged for a closer look

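Dbp in LysMCre;Arntfl/fl replicate 3 stood apart from the other arrays of its genotype, with a value of 6.53 against 6.41 to 6.43 in the others. The gap to the nearest array, relative to the range of the group, was 0.83, above Dixon's 95% critical value. The gap is about 0.1 on the log2 scale, and Dbp was the least variable of the 9 clock genes. Chance puts about 1 in 20 groups past this value, and 18 groups were tested (9 genes in both genotypes).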

How the results depend on the processing

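Of 180 values of the 9 clock genes under the alternatives, 168 kept their direction and their side of the threshold. Of the others, 3 became called, all of Cry1, and 9 changed sign, all of Per3 or Dbp, whose differences are close to 0. The variance trend, robust variances, SAM-type d score, methods' t-test, brighter probe sets and probe sets of 1 symbol all used the same differences. Under these settings no direction could change. Under every alternative, the clock genes other than Cry1 stayed below the fold threshold. Where that threshold applied, no adjusted p could have made them called. With the threshold without fold, which is not among the 180 values, the adjusted p alone decided, and 0 clock genes were called. The count of 168 thus includes values that could not have changed. The number of clock genes called was 0 with limma (2 at an unadjusted p below 0.05), and it was 1 with array weights, 1 with the brighter probe sets and 1 with probe sets of 1 symbol, each time Cry1, while the SAM-type d score and the methods' t-test called 0. The brighter probe sets and those of 1 symbol numbered 17183 and 23521, so that fewer probe sets were tested than the 34365 of the other settings. With array weights, Per3 was at -0.014. With median centring, Dbp was at -0.0028. Without 1 array, Per3 ran from -0.066 to 0.081 and Dbp from -0.023 to 0.019, and the clock genes called were 0 in each of the 9 fits. The causes of these changes were not tested.

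Over all probe sets, limma called 101, against 167 with array weights, 4 with the methods' t-test, 204 with the brighter probe sets, 5 with the replicate block and 0 with the neutrophil mean as a covariate, where 2686 had an unadjusted p below 0.05. Without 1 array the count ran from 1 (without LysMCre replicate 5) to 149 (without LysMCre replicate 4). The labels do not say whether the replicate numbers pair the mice. The deviations of arrays with the same number correlated at -0.12, -0.07, -0.0005 and 0.17, which cannot settle it. The block takes nothing from LysMCre replicate 5, which has no partner. Under it Dbp was at -0.014 and no clock gene was called, as without it. The number of correlated pairs was 0 with Spearman's rho, with median centring, without subtracting genotype means and without each array. Without 1 array, fewer orders of arrays remain, and a lone pair could not pass the adjusted threshold however strong its correlation. The counts without each array therefore say little about how firm the result is. The number of mice, 5 and 4, limits what can be detected.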
